A study of Mus musculus with 2 samples.

Results

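The genes of the proteasome were followed in mouse hippocampal cultures silenced with tetrodotoxin (TTX), a toxin that blocks voltage-gated sodium channels and so stops action potentials. They were chosen by name, as the array oligonucleotides (oligos) that are not controls and whose gene name starts with Psma to Psmg followed by a number. The rule took 49 genes, with 62 oligos on 71 spots, out of 22145 gene symbols on the array. Of the 49 genes, 47 were measured, meaning well above background on both arrays, out of 14015 genes measured in all. Psma8 and Psmb11, core subunits known from testis and from the thymus, were not well above background. Psmc3ip entered by name alone, since it encodes a partner of Psmc3 that acts in meiotic recombination, and it was left out of all counts. Its signal was 41.4 in control and 52.5 in TTX, a log2 difference of 0.34. The remaining 46 genes are the proteasome genes described here.

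The study had 1 control culture and 1 TTX culture, each on 1 single-colour array. Both came from hippocampus of ICR mouse embryos at day 16.5, were grown with 5.5% serum, were given 5 µM Ara-C to hold back dividing glia, and were harvested at 12 days in vitro. The TTX culture had the toxin for 2 days, at 2 µM by the series' text and 2 mM by the sample's source name, and the control culture carries no treatment in its title or source name. The labels' treatment text is the same for both samples, so the groups rest on the titles. With 1 array a group no difference has a replicate check, no p-value was computed, and precision is limited by how many arrays there were. Such cultures hold neurons and glia together, and on bulk RNA fewer cells of a type and less RNA per cell cannot be told apart.

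The proteasome degrades proteins that carry a chain of ubiquitin. Its barrel, the 20S core, has outer rings of alpha subunits that gate the entry and inner rings of beta subunits, some of which cut peptide bonds. The 19S cap sits on the barrel, binds ubiquitin chains, removes them and unfolds the substrate with a ring of ATPases. Interferon gamma can replace the cutting subunits with the inducible Psmb8, Psmb9 and Psmb10, which form the immunoproteasome, and the activators encoded by the Psme genes can open the barrel in place of the cap. In neurons the proteasome takes part in the turnover of synaptic proteins, and activity is known to affect it.

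Most of the 46 proteasome genes lay slightly lower in the TTX culture, while the activators lay higher. The median log2 difference (TTX minus control) was -0.08, against 0.01 over all measured genes. Below 0 were 31 of the 46 genes, where 48.8% of all measured genes were below 0. By role, the median was -0.04 in the 20S core (14 genes), -0.11 in the 19S cap (17 genes), -0.45 in the immunoproteasome (3 genes) and 0.35 in the activators (4 genes). These medians kept their sign under all 6 ways of scaling or reading the values. The 6 ways are not separate checks. Scaling to the 75th percentile, scaling to spike-ins and no normalization differ from each other only by a constant. The deposited table is quantile normalized like the main values. Bright genes lay lower under those constant shifts, with medians from -0.18 to -0.12.

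**Figure D1:**
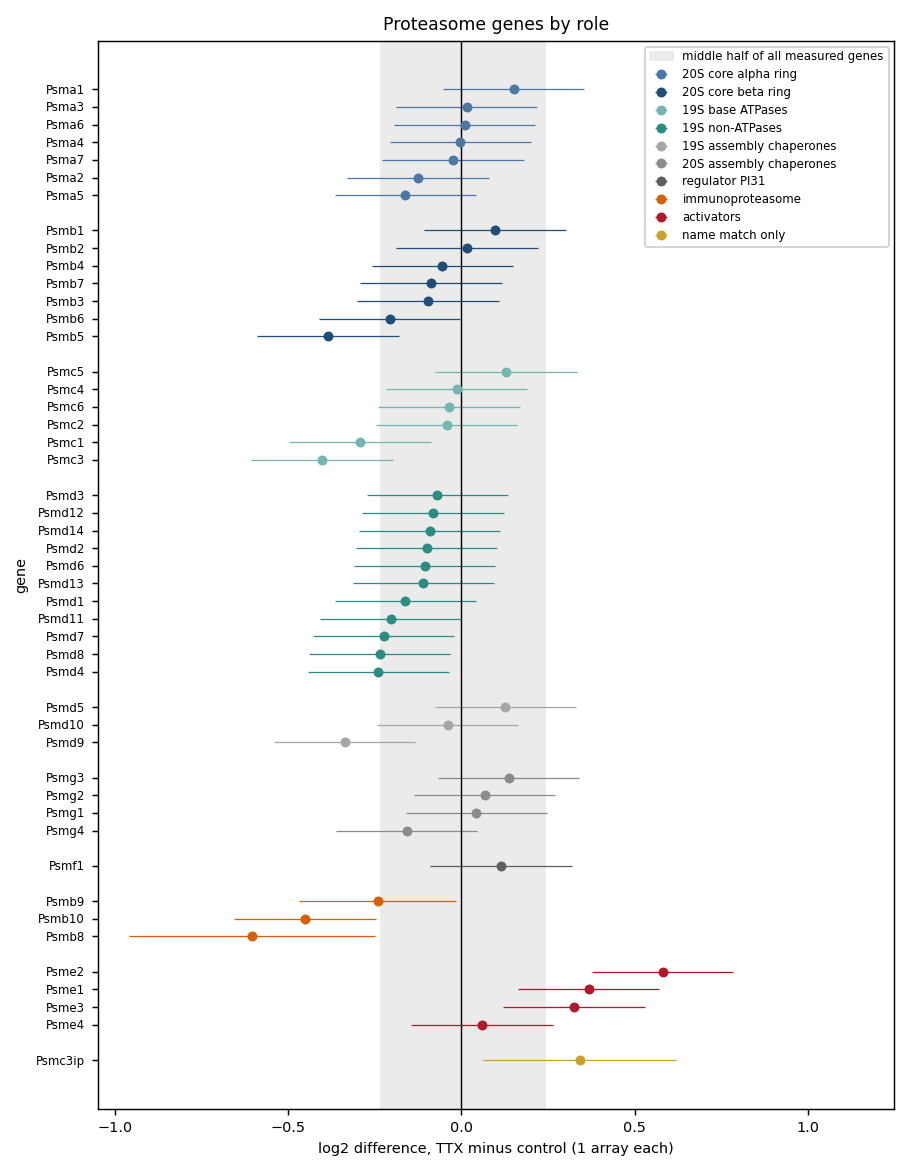
Log2 difference, TTX minus control, of each measured proteasome gene (rows), grouped by role, at its brightest oligo. Psmc3ip, which entered by name alone, is drawn as a further row at 0.34. Lines are the scanner software's own error of the difference, not a spread over cultures, and the grey band runs from -0.23 to 0.24, the quartiles of all measured genes. The 4 activators lie right of 0, the 3 immunoproteasome genes and all 11 non-ATPase cap subunits lie left of it, and the core subunits lie on both sides.

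The differences were small. A size rule of 0.32 on the log2 scale was used for small differences. Past it on the lower side were 5 genes (10.9% of the 46), namely Psmb8, Psmb10, Psmc3, Psmb5 and Psmd9, where 18.9% of all measured genes were. Past it on the higher side were 3 genes (6.52%), Psme1, Psme2 and Psme3, where again 18.9% of all measured genes were. Both shares were under those of the array as a whole with quantile normalization. This split of 5 lower and 3 higher moved with the scaling. With scaling to the 75th percentile it was 9 lower (19.6%) and 1 higher (2.17%), against 21% and 18.3% of all measured genes, and with no normalization also 9 and 1, against 21.4% and 18%. With scaling to spike-ins it was 13 lower (28.3%) and 1 higher (2.17%), against 25.6% and 15.2% of all measured genes. The lower share of proteasome genes was then above that of all genes, and the higher share stayed below it. At 1.5-fold, only Psmb8 was lower and no gene was higher, where 8.64% of all genes were lower and 7.66% higher. No proteasome gene reached 2-fold, where 3.4% of all genes were lower and 2.09% higher. For scale, the SD of 1 spot's log2 difference within these arrays was 0.148, from 261 oligos with 10 spots each. Dim oligos varied more, with an SD of 0.268 over the dimmest 20%, and bright ones less, with 0.0632 over the brightest 20%. The scanner software's own error of a difference was larger, with a median of 0.205.

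Several oligos carry these results. The pair below shows the chymotrypsin-like subunit Psmb5 and its inducible replacement Psmb8, whose oligos cover the same stretch of related messages, so that a reader can see how far apart the array's targets are. Capitals mark bases that are the same in both where the oligos overlap (31 of 50 bases, 62%). The Psmb5 oligo lies at chr14:55233161-55233220 on the minus strand and the Psmb8 oligo at chr17:34337771-34337830 on the plus strand (mm9). This Psmb5 oligo is the dimmer of the gene's measured oligos and gave -0.40. The value given for the gene comes from the brighter one.
Psmb5: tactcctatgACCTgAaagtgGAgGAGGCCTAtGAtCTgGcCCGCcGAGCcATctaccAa
Psmb8: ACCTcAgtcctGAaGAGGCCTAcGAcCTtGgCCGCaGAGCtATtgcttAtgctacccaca
The next are oligos of the activator Psme2 (chr14:56208888-56209346, minus strand, mm9) and the cap ATPase Psmc3 (chr2:90898252-90898311, plus strand, mm9), the second measurements behind the highest gene of the set and the lowest cap subunit.
Psme2: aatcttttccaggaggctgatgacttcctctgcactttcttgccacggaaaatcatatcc
Psmc3: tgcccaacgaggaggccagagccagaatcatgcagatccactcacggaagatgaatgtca
The Psme2 oligo spans more genome than its 60 bases, as an oligo across an exon junction does. Whether the other oligos lie in coding sequence or in a UTR was not analysed here.

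The alpha subunits, which form the gate of the barrel, lay on both sides of 0. Psma1 gave a signal of 7976 in control and 8858 in TTX (log2 difference 0.15), and Psma5 gave 7871 and 7036 (-0.16). These were the highest and the lowest of the 7, and both differences were below the scanner error. Psma2 stood at 22243 and 20394 (-0.13). Psma3 (18057 and 18255), Psma6 (7325 and 7375) and Psma7 (13300 and 13077) differed by 0.02, 0.01 and -0.02. Psma4 was at 5069 and 5060 at its brightest oligo, and its other oligo gave 0.18. The median of the 7 alpha subunits was -0.00253, and 4 of them were below 0. Between scalings 4 of the 7 changed sign.

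The beta subunits hold the cutting sites, and the lowest of them was Psmb5, which carries the chymotrypsin-like activity. Its signal was 57485 in control and 44031 in TTX, 1.31-fold lower (log2 difference -0.38). A separate oligo of Psmb5 gave -0.40, and across the 6 scalings the difference ran from -0.46 to -0.35. Psmb6, the caspase-like subunit, stood at 23842 in control and 20655 in TTX (-0.21), and Psmb7, the trypsin-like subunit, at 10622 and 9998 (-0.09). All 3 catalytic subunits were lower in TTX under every scaling. Of the subunits with no cutting site, Psmb3 (24853 and 23246) and Psmb4 (25375 and 24437) differed by -0.10 and -0.05. Psmb1 was at 8780 and 9391 (0.10) and Psmb2 at 993 and 1003.5 (0.02). The beta median was -0.09, with 5 of 7 below 0. Over the whole core, 9 of 14 genes were below 0, and 7 of the 14 changed sign between scalings.

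The cap's ATPases form the ring that unfolds substrates, and they split into unequal members. Psmc3 had a signal of 40975 in control and 31001 in TTX (log2 difference -0.40, and -0.23 at its other oligo). Psmc1 had 39542 and 32290 (-0.29, and -0.26 at its other oligo). The other members of the ring lay closer to 0. Psmc2 stood at 14649 and 14228 (-0.04), Psmc4 at 8060 and 7984 (-0.01) and Psmc6 at 2817 and 2748 (-0.04). Among the 17 cap subunits that the naming rule took, Psmc5 alone was above 0, at 6679 and 7306 (0.13). The sign of Psmc5 changed with the scaling. Adrm1, a ubiquitin receptor of the cap outside the rule, was higher in TTX (0.97) and is described below. The ATPases' SD of 0.198 was wider than the 0.0667 of the other cap subunits under the rule.

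The non-ATPase subunits of the cap hold ubiquitin chains, cut them off and scaffold the complex. The 11 that the naming rule took were all below 0 and close together, from -0.24 to -0.07 with a median of -0.11. Psmd4, a receptor for ubiquitin chains, had 19127 in control and 16204 in TTX (-0.24). Psmd8, a subunit of the lid, had 6050 and 5137 (-0.24), and Psmd7, partner of the deubiquitinase Psmd14, had 5230 and 4477 (-0.22). These 3 lay lowest among the non-ATPases. Psmd11, a scaffold of the lid, stood at 2626 and 2279 (-0.20), and Psmd14 itself at 2837 and 2662 (-0.09). Psmd1 and Psmd2, the large scaffold subunits of the base, were at 10735 and 9598 (-0.16) and at 18328 and 17103 (-0.10). The lid subunits Psmd13 (7064 and 6545) and Psmd6 (6313 and 5865) both differed by -0.11. Of the other lid subunits, Psmd12 was at 9724 and 9190 (-0.08), with 0.16 at its other oligo, and Psmd3 at 23068 and 21986 (-0.07). None of the 11 passed the size rule of 0.32. The differences of Psmd1, Psmd2, Psmd3, Psmd6, Psmd12, Psmd13 and Psmd14 were below their scanner errors of 0.204, and that of Psmd11 was level with it. Under the 6 scalings 10 of the 11 stayed below 0, and Psmd3 changed sign.

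**Figure D2:**
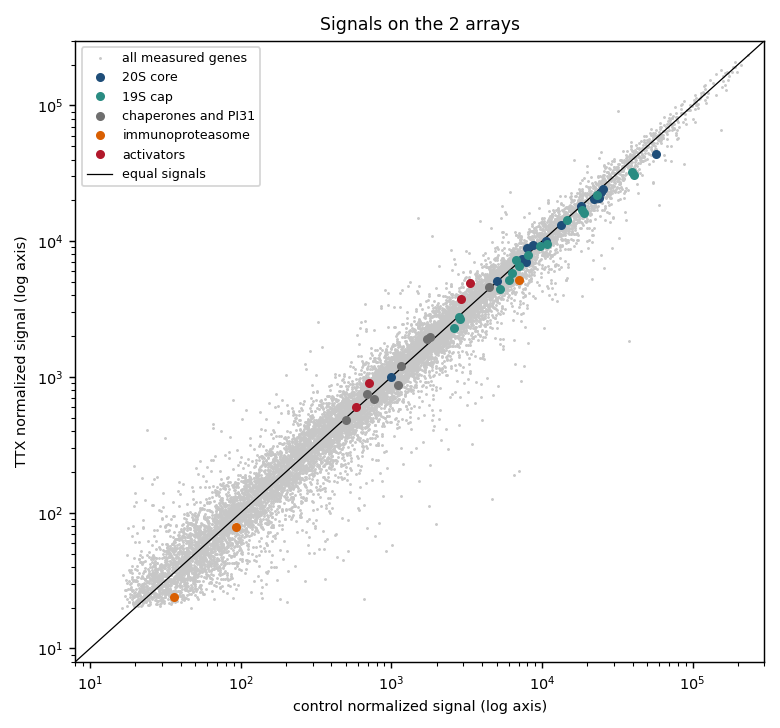
Normalized signal in control (x axis, log scale) against TTX (y axis, log scale), 1 point a gene at its brightest oligo, with all 14015 measured genes in grey and the line of equal signals. Core and cap subunits hug the line, mostly just under it, while the activators Psme1, Psme2 and Psme3 lie above it and Psmb10 below it. Psmb8 and Psmb9 lie at the dim end, where the grey cloud is widest.

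Core and cap subunits moved within a narrow band. The SD of their 31 log2 differences was 0.132, against 0.524 over all measured genes and 0.386 over the brightest 20% of genes, which held 27 of the 31. Other large complexes, described below, also had narrow bands. Their SDs were 0.138 for the CCT chaperonin, 0.163 for ribosomal proteins and 0.193 for both eIF3 and the COP9 signalosome. The quartiles of the 31 subunits were -0.18 and -0.02, against -0.20 and 0.17 in the brightest 20%. The median was -0.09 for the 31 subunits and -0.01 for the brightest 20%. Of the 31 subunits, 25 were below 0 (80.6%), against 51.2% of the brightest 20% of genes. Under all 6 scalings 22 stayed below 0, none stayed above 0 and 9 changed sign. The matching counts for the brightest 20% were not computed, and their median was below 0 in each of the 6 settings. With quantile normalization Psmb5 and Psmc3 passed the size rule on the lower side (6.45% of the 31), against 15.1% of the brightest genes. With scaling to the 75th percentile or with none, 6 of the 31 passed (19.4%), against 24% and 24.8% of the brightest genes, and with scaling to spike-ins 10 passed (32.3%), against 30.9%. Values also differed with spot position. The median was -0.08 for the 21 subunits in rows 1 to 192 of the array. It was -0.16 for the 10 in rows 193 to 384, beside -0.09 for all 31. The dimmest 20% of measured genes had medians of 0.05 in rows 1 to 48 and -0.03 in rows 193 to 384. The part of spot position in the result was not tested.

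Bright genes as a class shifted with the scaling. Their median was -0.01 with quantile normalization, -0.12 with scaling to the 75th percentile and -0.18 with scaling to spike-ins. Over the same 3 settings the 20S core moved from -0.04 to -0.15 and -0.21, and the 19S cap from -0.11 to -0.24 and -0.30. The cap stayed below the bright genes in each setting. The 20S core stood nearer to them in each.

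**Figure D3:**
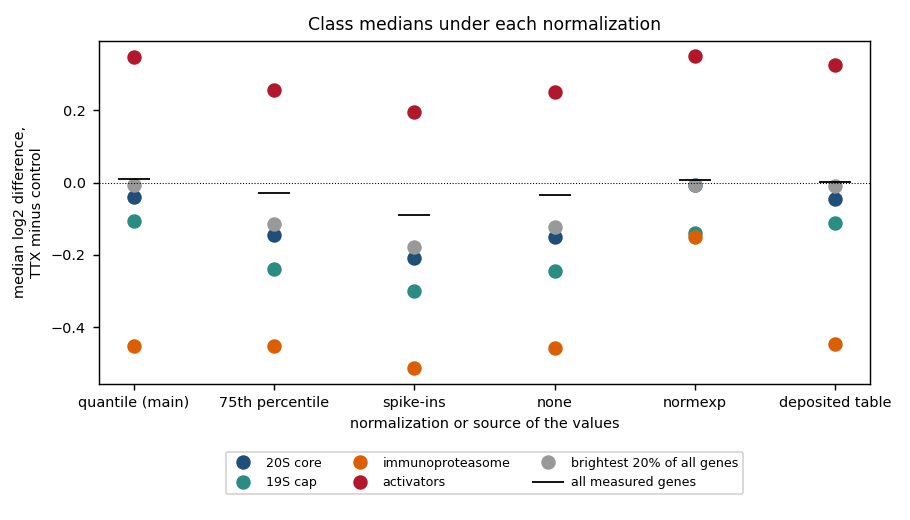
Median log2 difference, TTX minus control (y axis), of each class of proteasome genes, of the brightest 20% of genes and of all measured genes (black line), under 6 normalizations or sources of the values (x axis). The activators stay above 0 and the cap, core and immunoproteasome stay below it in each, while the core keeps close to the bright genes and the immunoproteasome rises to -0.15 with normexp background correction.

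All 3 inducible subunits of the immunoproteasome were lower in TTX, under every scaling. Psmb10 was bright and lay farthest from its constitutive counterpart, with a signal of 7024 in control and 5138 in TTX (log2 difference -0.45, 1.37-fold lower, oligo at chr8:108459677-108459736, mm9). The counterpart Psmb7 differed by -0.09, which puts Psmb10 lower by a further 0.36. Across scalings Psmb10 ran from -0.65 to -0.45. Psmb8 and Psmb9 were near the floor of the array, with signals of 36.1 and 23.8 for Psmb8 (-0.60) and 92.4 and 78.2 for Psmb9 (-0.24). Psmb8 differed from Psmb5 by a further -0.22, and Psmb9 from Psmb6 by -0.03. The scanner error was 0.355 for Psmb8 and 0.226 for Psmb9, and with normexp background correction Psmb8 was at -0.11. Another oligo of Psmb9 was not well above background.

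Dim genes scattered widely on these arrays. In the lowest 20% of measured genes the SD of the log2 difference was 0.622, and 25.3% were past the size rule of 0.32 on the lower side. Psmb8 had its spot in row 23 of the 384 rows. In rows 1 to 48 the dim genes had an SD of 0.736 and 26.6% were past it on that side. The -0.60 of Psmb8 was thus within 1 SD of the dim genes, and Psmb10 is the inducible subunit with a bright signal.

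The activators went the other way. Psme1 and Psme2 encode the subunits of PA28, a ring that opens the core and is induced by interferon gamma. Psme1 is on the array at 10 spots, of which 8 were free of outlier flags. Over these 8 spots its signal was 2890 ± 52.7 (SD, 8 spots of 1 array) in control, from 2794 to 2965, and 3729 ± 94.9 (SD, 8 spots of 1 array) in TTX, from 3559 to 3855. No control spot reached the lowest TTX spot. The log2 difference was 0.37 with an SD over spots of 0.0396, and single spots ran from 0.29 to 0.42. The spots repeat the hybridization and not the culture. Before normalization all 10 spots were higher in TTX, by 0.0272 to 0.298.

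Psme2 was the highest of the 46 genes. Its brightest oligo, at chr14:56206296-56206355 (mm9), gave 3307 in control and 4946 in TTX (log2 difference 0.58). The oligo printed above gave 1354 and 1989 (0.56). A further oligo was not well above background. The Psme1 oligo lies close by at chr14:56200194-56200253 (mm9). Psme3, which encodes the nuclear activator PA28 gamma, stood at 716 in control and 898 in TTX (0.33). Its only oligo consists mostly of TG and CA repeats, and whether that oligo also binds other messages was not tested. Psme3 passed the size rule only narrowly with quantile normalization, and also with normexp (0.344). It fell short with scaling to the 75th percentile (0.263), with spike-ins (0.201), with no normalization (0.257) and with the deposited values (0.319). Psme4, which encodes the activator PA200, was at 581 and 605 (0.06), its other oligo gave -0.35, and its sign changed with the scaling. Psme1, Psme2 and Psme3 stayed higher in TTX under all 6 scalings, with lowest values of 0.19, 0.40 and 0.20. The PA28 genes lay higher while the inducible cutting subunits, which interferon gamma also raises, lay lower.

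**Figure D4:**
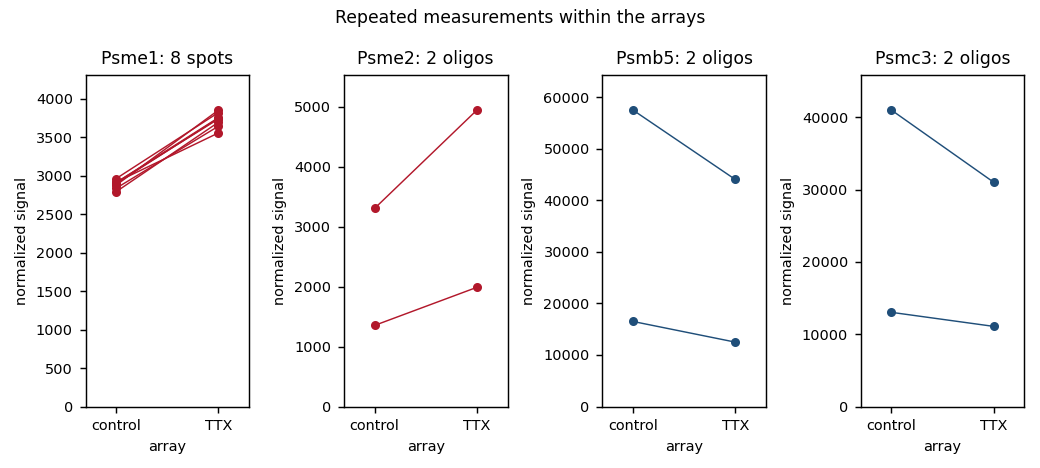
Normalized signal (y axis, from 0) on the control and the TTX array for genes measured more than once within an array, where each line joins the same spot or oligo on both arrays. All 8 Psme1 spots and both Psme2 oligos are higher in TTX, and both oligos of Psmb5 and of Psmc3 are lower.

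Assembly factors and the regulator PI31 had mostly small differences, and their signs depended on the scaling for Psmg1, Psmg2, Psmg3 and Psmd5, which were above 0 with quantile normalization and below 0 with scaling to spike-ins. The core's assembly chaperones Psmg1 (4453 in control and 4590 in TTX), Psmg2 (1153 and 1208), Psmg3 (1726 and 1898) and Psmg4 (767 and 687) differed by 0.04, 0.07, 0.14 and -0.16. Psmf1, which encodes PI31, stood at 689 and 746 (0.11). Of the chaperones that build the base of the cap, Psmd5 was at 1808 and 1974 (0.13) and Psmd10 at 497 and 484 (-0.04). Psmd9 passed the size rule at its brightest oligo, with 1100 and 871 (-0.34), but its other oligo gave 0.00. Psmd10 also had oligos apart, with -0.49 at the other. Among the 11 proteasome genes with more than 1 measured oligo, 7 had oligos of the same sign, and the median range between oligos was 0.19.

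Genes that work beside the proteasome did not move as a block. Of 12 measured genes for proteins bound to the proteasome or needed to build it, 8 were below 0 and the median was -0.14. Adrm1, which encodes a ubiquitin receptor of the cap outside the naming rule, stood out with 2030 in control and 3989 in TTX (log2 difference 0.97). Adrm1 was measured at 1 oligo, and it ran from 0.80 to 1.02 across scalings. The ligase Ube3c was also higher (1438 and 2020, 0.49). The deubiquitinase Usp14 (9079 and 7486, -0.28), the lid subunit Sem1 (20078 and 17580, -0.19) and the core maturation factor Pomp (8129 and 7220, -0.17) were lower, as the cap subunits were. The deubiquitinase Uchl5 was at 3715 and 3516 (-0.08). Fbxo7, an F-box protein that binds PI31, was lower at 2726 and 2012 (-0.44).

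Of the regulators of proteasome genes, the list had a median of 0.01 with 5 of 11 measured genes below 0. Nfe2l1, which encodes the factor NRF1 that raises proteasome genes when the proteasome is inhibited, was lower (444 in control and 323 in TTX, -0.46). Nfe2l2, which encodes NRF2, was higher (444 and 524, 0.24), as was Bach1, a repressor at the same sites (401 and 571, 0.51). Stat3, a transcription factor of cytokine signalling, was at 5005 and 9009 (0.85). The polyubiquitin gene Ubb stood at 175224 and 164616 (-0.09), and the 6 measured ubiquitin and E1 genes had a median of -0.05. Of 11 shuttle factors and VCP partners 8 were below 0, with a median of -0.12. Among them Ubqln1 stood at 2266 and 1744 (-0.38), while Ubqln2 stood at 3444 and 4228 (0.30).

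Interferon and antigen presentation genes were split. Of 14 measured genes 9 were below 0 and the median was -0.18. The interferon-induced factor Irf1 was at 398 in control and 417 in TTX (0.07). B2m, the light chain of MHC class I, was higher (1601 and 2270, 0.50). Calr, a chaperone of the class I heavy chain, was lower (9830 and 5837, -0.75). Irf9 (458 and 862) and the dim Ifit3 (61.7 and 155) differed by 0.91 and 1.33. Tap1, Irf7, Irf8, Nlrc5, Erap1 and Ifit1 were not measured. The summed signal of the 14 genes was 20266 in control and 15919 in TTX, and without Calr it was 10436 and 10081.

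Markers of the other cells in the culture moved beside these genes. Of the microglia markers 8 of 10 measured genes were above 0 with a median of 0.26, while Cx3cr1 and Ptprc were not measured, and their summed signal was 20015 in control and 22192 in TTX. Most of that sum was Itgam, at 18172.5 in control and 20323 in TTX, so the sum mainly follows this 1 gene. Itgam is named here after its value was seen. Of the astrocyte markers 7 of 9 were above 0 with a median of 0.24, and their summed signal was 52155 in control and 62481 in TTX, while Gja1 was not measured. Aldoc, also named after its value was seen, made up most of that sum, at 38706 in control and 44061 in TTX. Of the oligodendrocyte lineage markers 5 of 6 were above 0 (0.20), with Mag, Olig2, Sox10 and Pdgfra not measured. Fibroblast and endothelial markers had 4 of 6 above 0 (0.13), but their summed signal was 3249 in control and 3037 in TTX. Most of that sum was Kdr, at 2445 in control and 2071 in TTX. Dim genes weighed on some of these medians. With the stricter filter the median was 0.11 for microglia and 0.02 for oligodendrocyte lineage markers. It was 0.24 for astrocyte markers and 0.28 for fibroblast and endothelial markers. Of the neuron markers 8 of 12 were below 0 with a median of -0.27, and their summed signal was 270833 in control and 248269 in TTX. The part of the cell mixture in the proteasome values was not tested. As a check of the labels, the activity-regulated genes Arc (4641 and 127, -5.19) and Fos (330 and 54.1, -2.61) were far lower on the array labelled TTX. Across the arrays, 54.2% of spots were well above background in control and 52.2% in TTX.

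Other large complexes of bright genes give a measure of what small joint shifts look like here. Cytosolic ribosomal protein genes had a median of 0.12, with 63 of 78 above 0 and an SD of 0.163, though the median came to 0.00 with scaling to spike-ins. The CCT chaperonin, which folds actin and tubulin, had all 8 subunits above 0 with a median of 0.15, which turned to -0.02 with scaling to spike-ins. The translation factor eIF3 had 7 of 12 above 0 with a median of 0.01, which turned to -0.10 with scaling to the 75th percentile and -0.16 with spike-ins. The COP9 signalosome, whose subunits are relatives of the cap's lid, had 6 of 10 below 0 with a median of -0.04, and its lowest was Cops7a at -0.52. With scaling to spike-ins its median was -0.21, where the 20S core stood at -0.21 and the 19S cap at -0.30. The 4 lists of other complexes, and the naming of Cops7a, were added after the proteasome values were seen.

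**Figure D5:**
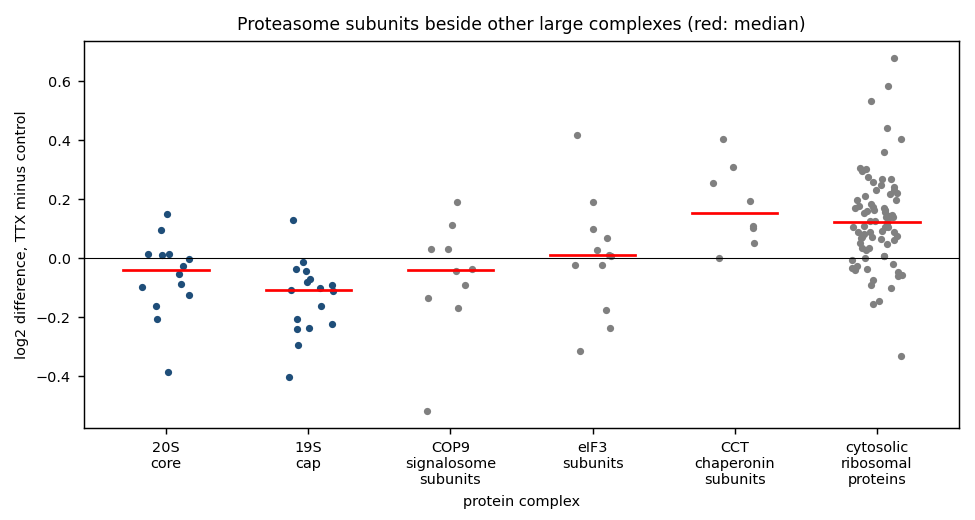
Log2 difference, TTX minus control (y axis), of each measured gene of 6 protein complexes (x axis), with the median in red and points spread sideways for view only. Core and cap subunits have medians of -0.04 and -0.11, and the COP9 signalosome -0.04, while CCT and ribosomal proteins centre at 0.15 and 0.12. With scaling to spike-ins, not drawn, core and cap were at -0.21 and -0.30 and COP9 and eIF3 at -0.21 and -0.16. CCT and ribosomal proteins were then at -0.02 and 0.00.

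Upstream sequence was read for 41 of the 49 genes in RefSeq's table for GRCm38.p6, from 250 bases before to 50 after the start. Stretches of the last 150 bases before the start are given for the catalytic subunits Psmb5 (chr14:54617996-54618145, minus strand) and Psmb6 (chr11:70525207-70525356, plus strand) and the neighbouring activators Psme1 (chr14:55578344-55578493, plus strand) and Psme2 (chr14:55591102-55591251, minus strand), since these lay on opposite sides of 0. Capitals mark TGACNNNGC, the core of the antioxidant response element at which NRF1 and NRF2 act. It and the motifs named after it were searched on both strands, and no matches overlapped in these genes.
Psmb5: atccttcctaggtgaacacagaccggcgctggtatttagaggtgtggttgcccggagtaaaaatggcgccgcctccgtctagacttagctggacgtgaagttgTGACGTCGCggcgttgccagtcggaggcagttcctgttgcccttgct
Psmb6: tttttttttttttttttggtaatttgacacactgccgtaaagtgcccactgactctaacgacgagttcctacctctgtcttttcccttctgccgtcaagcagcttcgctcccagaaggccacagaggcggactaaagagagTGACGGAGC
Psme1: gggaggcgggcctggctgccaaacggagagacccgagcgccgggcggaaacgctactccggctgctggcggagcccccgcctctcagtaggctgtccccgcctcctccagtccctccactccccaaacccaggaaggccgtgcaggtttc
Psme2: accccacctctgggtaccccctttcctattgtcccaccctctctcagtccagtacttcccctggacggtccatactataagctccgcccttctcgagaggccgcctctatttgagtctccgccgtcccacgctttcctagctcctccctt
The motif starts 47 bases before the start of Psmb5 and 9 before that of Psmb6. It was in the windows of 4 of 25 core and cap genes (16%) and in 14.0% of all 27025 genes with a window, so the share was near that of genes at large. The other 2 were Psmc6 and Psmd12, and none of 5 immunoproteasome and PA28 genes held it. An interferon-stimulated response element core, GAAANNGAA, was in 4 of 25 core and cap genes and in 1 of the 5, Psme1, where it begins 11 bases after the start, against 9.76% of all genes. The gamma-activated site TTCNNNGAA was in 1 of 25 and in 1 of the 5, Psmb8, 97 bases before the start, against 9.55% of all genes. The cyclic AMP response element TGACGTCA, which lies on the route from activity to transcription, was in none of either group and in 2.03% of all genes. These matches are letters in a window, the shares rest on few genes, and binding was not measured.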

How the data were processed

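Cy3-labelled RNA of each culture went on 1 Agilent 8x60K array. The authors' scanner files give linear spot intensity after background subtraction, per the file headers, which name Feature Extraction 10.7.1.1, where the submitters' processing notes name 9.5.1.1. The deposited value table also holds linear intensity, quantile normalized per the series' design text. It was used as an alternative, and across 19176 oligos its log2 differences had a correlation of 0.9999 with those from the scanner files.

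Of 59305 spots that are not controls, 291 marked as outliers were left out. Processed signals were quantile normalized here, log2 values were computed from them (the authors deposited none), and spots of 1 oligo were averaged. An oligo counted as measured if the software marked at least 0.5 of its spots as well above background, on each array. The brightest such oligo stood for the gene. Signals printed are normalized. Median local background was 58 in control and 60 in TTX, and no spot of a proteasome gene was saturated. RefSeq's table for GRCm38.p6 gave a symbol to 30847 of 55681 oligos of 60 bases, 27319 by accession and 3528 by symbol. Oligo coordinates come from the files, whose headers name mm9.

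With 1 array a group there was no test. Size rules of 0.32 on the log2 scale, 1.5-fold and 2-fold were read against all measured genes. Every measured proteasome gene was open to naming; of the other lists, up to 4 measured genes with the largest differences and a fixed set of regulators, ubiquitin genes and interferon genes. A few genes that this rule names are not reported here. The proteasome genes and lists were chosen with earlier results of these data known. Alternatives were scaling to the 75th percentile, to the 7 spike-ins above background or none, normexp in place of the scanner's background subtraction (offset 50), the deposited table, no filter or a stricter one (above percentile 25), and the mean over oligos. The steps were tested on simulated data. Python 3.11.15, numpy 2.4.6, pandas 2.3.3, matplotlib 3.10.9, Biopython 1.88, R 4.3.3 and limma 3.58.1 were used.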

Additional observations from a re-analysis of the deposited data

How the results depend on the processing

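The medians of all proteasome genes, the 20S core, the 19S cap, the immunoproteasome and the activators kept their direction under each alternative run. As said above, the scalings among these runs are not separate checks. For the immunoproteasome the stricter filter left Psmb10 alone (-0.45), so that run says nothing of Psmb8 and Psmb9. Scaling to spike-ins gave medians of -0.23 over all proteasome genes, -0.21 in the 20S core, -0.30 in the 19S cap and 0.20 in the activators, and it moved the median of all measured genes from 0.01 to -0.09. The immunoproteasome median was -0.15 with normexp background correction, under which Psmb8 came to -0.11. Genes past the size rule of 0.32 on the lower side numbered 9 with scaling to the 75th percentile and 9 with no normalization. These were 19.6%, against 21% and 21.4% of all measured genes. With spike-ins there were 13 (28.3%, against 25.6%), and with normexp 3 (6.52%, against 14.3%). With the mean over oligos there were 3, and the share of all genes was not computed for it. At 1.5-fold and 2-fold they were 1 and 0, against 8.64% and 3.4% of all genes. On the higher side there was 1 (2.17%) with each of the 75th percentile, spike-ins and no normalization. The shares of all genes were 18.3%, 15.2% and 18%. With normexp there were 3 (6.52%, against 14.2%). At 1.5-fold and 2-fold there were 0, against 7.66% and 2.09% of all genes. Of 493 values of single genes and other lists, 58 moved by more than the spot SD of 0.148, of which 32 under spike-in scaling. The cause of these moves was not tested.

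No paired analysis was possible because each group had 1 array, and no array was left to drop. Repeated spots measure the scanner and the hybridization, not the cultures, and the size of ordinary differences between control cultures was not measured. The dim Psmb8 and Psmb9 lie close to background, which limits what their values show.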
